A study of Mus musculus with 36 samples.

Results

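The antagonist RU-486 (mifepristone) was added on top of dexamethasone (DEX) in cultures of dissociated mouse cortical cells, and RNAseq libraries of cultures given both compounds were compared with libraries of cultures given DEX alone. Members were taken by label: all batch 1 libraries of these treatments with an RNA integrity number (RIN) of 6 or above, which are 5 DEX + RU-486 libraries (13 to 17) and 5 DEX libraries (7 to 11), 10 of the 36 libraries of the series. Of the 55492 entries of the count table, 18303 had a mean count above 5 over these 10 libraries, and all of them were tested. The cells (C57EDCX, a supplier's product of dissociated cells) came from mouse cortex at embryonic day 18, and DEX was given at 1 µM for 72 h, alone or with RU-486 at 1 µM. Untreated control libraries of the same batch (6 with a RIN of 6 or above) and batch 2 libraries of both treatments (4 and 4) served for side-by-side values. No group received RU-486 without DEX, and the labels do not say whether libraries of a group came from separate cultures, so the p-values measure only the spread between these libraries, which may be technical.

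DEX is a synthetic agonist of the glucocorticoid receptor, a transcription factor that enters the nucleus once a ligand binds it and then acts at DNA elements near its target genes. RU-486 occupies the same ligand pocket and blocks receptor activity in many settings, and it also binds the progesterone receptor. Cortical cultures from embryos are mostly neurons, with a smaller share of astrocytes and of the oligodendrocyte lineage, in which precursors marked by Pdgfra and Cspg4 mature into cells that make myelin proteins such as Mbp and Mag.

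The libraries differed in ways that the treatment labels do not cover. Total counts were 12133485 to 15135027 in DEX and 17354341 to 26729341 in DEX + RU-486 with no overlap (exact permutation test, two-sided p = 0.00794, the smallest that 5 against 5 libraries can give), so depth and treatment cannot be told apart in this batch. RIN was 6.2 to 7.8 in DEX and 6.6 to 7.9 in DEX + RU-486 (exact permutation p = 0.579). DEX library 7 and DEX + RU-486 library 13, which had the lowest RIN of their groups, stood apart from the other 8 on the first principal component. Levels are given as CPM, counts scaled to library size with TMM factors. A log2 fold change below 0 means a lower level with RU-486 than without it, and a p printed beside one without further words is edgeR's unadjusted p. All 12 neuronal markers on the list used passed the count filter, as did all 13 of the oligodendrocyte lineage, against 2 of 12 microglial markers. The summed level of the neuronal markers was 2532 to 3659 CPM in DEX and 2800 to 3630 CPM in DEX + RU-486, with library 7 and library 13 at the top of their groups.

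Across all genes no difference between DEX + RU-486 and DEX passed the adjusted test. With edgeR's quasi-likelihood test and Benjamini-Hochberg adjustment, 0 genes were higher and 0 were lower in DEX + RU-486 at an adjusted p under 0.05 (0% of those tested in each direction), and the smallest adjusted p was 0.951 among the higher genes and 0.927 among the lower. At an unadjusted p under 0.05, 271 genes were higher (1.48% of all tested) and 506 lower (2.76%). The count of higher genes was 644 without DEX library 7, 492 without DEX + RU-486 library 13 and 178 without library 17. The 5 libraries of one group lay entirely above the 5 of the other for 69 higher genes (0.377%) and 106 lower genes (0.579%). Signs were near balance, with a positive log2 fold change in 9305 genes (50.8%) and a negative one in 8998 (49.2%). The median absolute log2 fold change was 0.15 against a median SE of 0.22. The 95% interval of the difference lay within 2-fold in either direction for 11929 genes (65.2%), and reached past it for the others. DESeq2 called 1 gene higher, Ndnf, and 10 lower, while limma-voom called 0 in each direction, and gave 291 and 628 genes at an unadjusted p under 0.05.

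**Figure D1:**
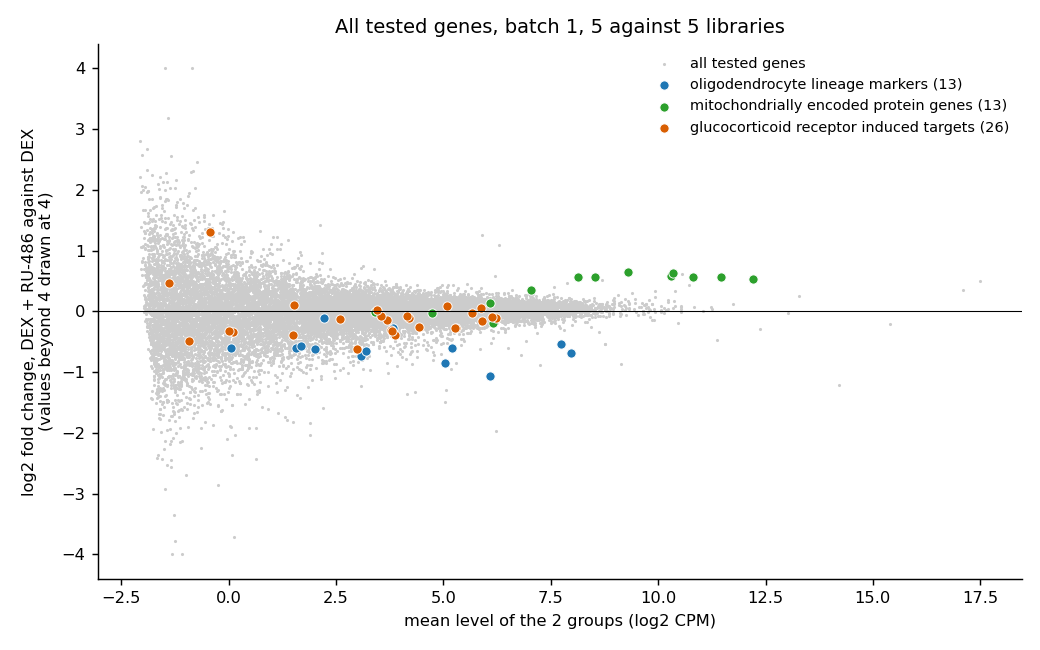
Each point is 1 of the 18303 tested genes, with its mean level in log2 CPM on the horizontal axis and its log2 fold change of DEX + RU-486 against DEX on the vertical axis. The 13 oligodendrocyte lineage markers all lie below 0, 10 of the 13 mitochondrially encoded protein genes lie above it, and 20 of the 26 glucocorticoid receptor targets lie below it. Values beyond 4 are drawn at 4.

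The first question for an antagonist is whether the receptor's own target genes were lower in its presence. Of 30 genes known to be induced by the glucocorticoid receptor, 26 passed the filter, and Angptl4, Pdk4, Fam107a and Lcn2 did not. None of the 26 passed after adjustment with edgeR, 20 had a negative log2 fold change, and the median was -0.13 beside 0.0044 over all genes. At an unadjusted p under 0.05, 1 was lower, Glul, and 1 was higher, Map3k6 (3.85% each way, beside 2.76% and 1.48% of all genes). The 95% interval lay within 2-fold for 18 of the 26. For the same genes DEX against control gave a median of 0.46 with 7 higher and 1 lower after adjustment (edgeR, where 9.14% of all genes were higher and 11% lower), and DEX + RU-486 against control gave 0.35 (6.29% of all genes higher and 8.4% lower after adjustment). These comparisons share libraries with each other.

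Glul encodes glutamine synthetase, which turns glutamate and ammonia into glutamine, and is a classical glucocorticoid target. Its level was 42.4, 38.8, 46.7, 43.4 and 42.01 CPM in DEX libraries 7 to 11 and 30.1, 35.7, 39.5, 35.8 and 36.2 CPM in DEX + RU-486 libraries 13 to 17. Library 15 alone of the DEX + RU-486 group reached into the range of DEX, and the means were 42.6 ± 2.86 and 35.5 ± 3.38 CPM (SD, n = 5 in each group). The log2 fold change was -0.27 (SE 0.10, 95% interval -0.48 to -0.051, unadjusted p = 0.0187), and the same comparison in batch 2 gave -0.48 (p = 0.00449). Against control, Glul was at -0.19 in DEX (adjusted p = 0.176, edgeR) and at -0.46 in DEX + RU-486 (adjusted p = 0.00498, edgeR), so it was not among the genes that passed as higher with DEX here.

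Fkbp5, a co-chaperone that lowers the receptor's affinity for its ligand and is a standard reporter of its activity, was at 19.3, 14.9, 17.4, 11.01 and 13.7 CPM in DEX and at 13.2, 9.70, 14.1, 12.9 and 11.7 CPM in DEX + RU-486. The ranges overlapped, and the log2 fold change was -0.31 (SE 0.16, 95% interval -0.66 to 0.039, unadjusted p = 0.0780). In batch 2 it was -0.39 (p = 0.0327). Against control, Fkbp5 was at -0.21 in DEX (adjusted p = 0.322, edgeR) and at -0.52 in DEX + RU-486 (adjusted p = 0.0189, edgeR). It was therefore not among the genes that passed as higher with DEX here. Sgk1, a kinase that regulates ion transport and cell survival, was at 25.7, 11.4, 15.6, 12.02 and 18.3 CPM in DEX and 15.99, 11.8, 11.4, 12.98 and 11.4 CPM in DEX + RU-486, and library 7 held the highest value. Its log2 fold change was -0.38 (SE 0.20, 95% interval -0.82 to 0.052, unadjusted p = 0.0804) and -0.18 without library 7, and batch 2 gave -0.11 (p = 0.513). Sgk1 against control was at 0.26 in DEX (adjusted p = 0.326, edgeR) and at -0.12 in DEX + RU-486 (adjusted p = 0.685, edgeR). Over the whole list batch 2 had 20 of 26 negative signs and a median of -0.13, and at an unadjusted p under 0.05 had 4 lower and 2 higher, where 7.57% and 7.38% of all genes were. The 4 were Glul, Fkbp5, Klf9 and Mt1, and the 2 were Ddit4 and Errfi1.

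Sgk1 was also the one target of the 24 with a RefSeq promoter entry (GRCm38.p6, 250 bases before to 50 after the start) whose window held the full palindromic receptor element, AGAACA and TGTTCT with any 3 bases between them. That element, read on both strands, was present in 3 of the 32841 promoter entries (0.00913%), while one arm of it, TGTTCT or AGAACA, which overlaps the full element, was present in 19% of all entries and in 12.5% of these 24 genes (Sgk1, Sult1a1 and Tsc22d3). The window lies at chr10:21993640-21993939, plus strand, and is shown because it carries this element, which is in capitals. A match is a description of these letters only.
Sgk1: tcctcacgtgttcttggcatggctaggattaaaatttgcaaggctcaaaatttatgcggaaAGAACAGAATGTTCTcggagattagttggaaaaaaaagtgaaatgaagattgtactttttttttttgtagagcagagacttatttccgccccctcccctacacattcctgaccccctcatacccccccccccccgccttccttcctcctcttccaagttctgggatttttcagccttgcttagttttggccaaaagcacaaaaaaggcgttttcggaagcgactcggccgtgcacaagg

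A further set of targets was high in DEX library 7. Zbtb16 (PLZF), a transcriptional repressor strongly induced by glucocorticoids, was at 22.1, 7.14, 6.24, 7.22 and 5.59 CPM in DEX and 11.3, 4.57, 6.37, 4.86 and 4.22 CPM in DEX + RU-486. Klf9, a Krüppel-like factor, was at 35.9, 9.23, 10.9, 11.9 and 9.92 CPM in DEX and 21.9, 8.14, 11.5, 10.1 and 10.4 CPM in DEX + RU-486. Tsc22d3, which encodes the glucocorticoid-induced leucine zipper, was at 21.9, 10.8, 10.7, 12.4 and 11.4 CPM and 17.6, 9.07, 13.4, 9.97 and 11.1 CPM. In each of these genes library 7 was the highest of its group and library 13 the highest of the other, and the groups overlapped. The log2 fold changes were -0.62 (p = 0.121) for Zbtb16, -0.32 (p = 0.388) for Klf9 and -0.13 (p = 0.564) for Tsc22d3. Without DEX library 7 they became -0.071, 0.24 and 0.11, and the number of negative signs in the list went from 20 to 12 of 26 with a median of 0.0027. With both library 7 and library 13 left out, 19 were negative and the median was -0.14, and with RIN as a covariate 16 were negative and the median was -0.066.

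The immediate targets Per1, a circadian clock repressor, and Dusp1, a phosphatase that turns off MAP kinases, had values of -0.10 (p = 0.623) and -0.26 (p = 0.262). Cdkn1a, the cell cycle inhibitor p21, had -0.27 (p = 0.101), and -0.13 without DEX library 7. Ddit4, an inhibitor of mTOR signalling, had a 95% interval of -0.16 to 0.29 around 0.063, and 0.40 (p = 0.0297) in batch 2. Map3k6, a stress-activated kinase, stood at 0.0872, 0.280, 0.562, 0.858 and 0.301 CPM in DEX and 0.923, 0.629, 0.567, 1.28 and 1.88 CPM in DEX + RU-486, mostly near or under 1 CPM. Its difference on the log2 scale was 1.31 (SE 0.57, 95% interval 0.11 to 2.52, unadjusted p = 0.0347). The transcripts of the receptors themselves were not told apart between the groups of batch 1. Nr3c1, the glucocorticoid receptor, had 0.025 (95% interval -0.33 to 0.38), and Nr3c2, the mineralocorticoid receptor, had 0.40 (95% interval -0.28 to 1.07). In batch 2 Nr3c1 had 0.15 (p = 0.363) and Nr3c2 had 0.65 (p = 0.00395). Of 21 corticosteroid receptors, chaperones and coregulators tested in batch 1, 12 were positive and 9 negative, with a median of 0.022.

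**Figure D2:**
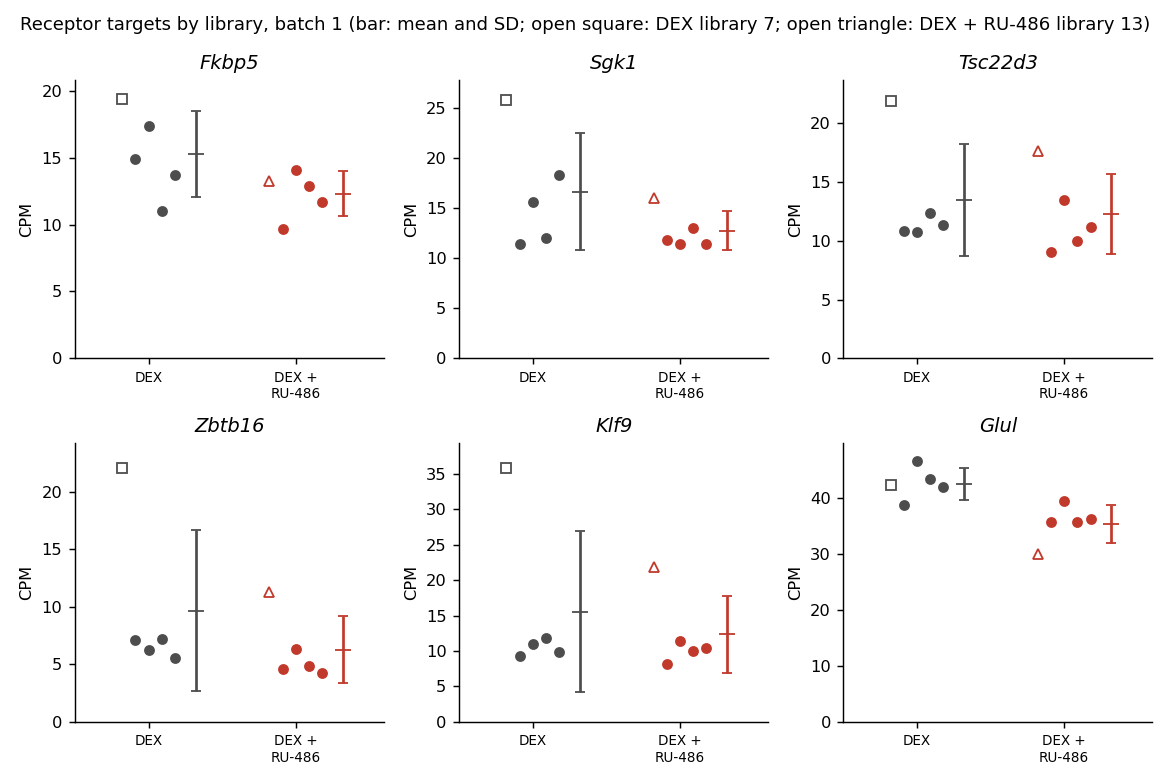
CPM of 6 glucocorticoid receptor targets in each batch 1 library, DEX in grey and DEX + RU-486 in red, with the mean and SD beside the points. DEX library 7 (open square) and DEX + RU-486 library 13 (open triangle) lie above the other libraries of their groups in Tsc22d3, Zbtb16 and Klf9, and Glul overlaps through 1 library of DEX + RU-486.

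Oligodendrocyte lineage markers were lower in DEX + RU-486 by sign in every case. All 13 lineage markers had a negative log2 fold change, between -1.07 and -0.11, the median was -0.61, and 7 were lower at an unadjusted p under 0.05 with edgeR (53.8%, against 2.76% of all genes). None passed after adjustment with edgeR, and DESeq2 called Mobp. Mature myelin genes and lineage transcription factors were among the 7, which were Mobp, Mbp, Mag, Olig1, Cnp, Mog and Sox10. For the same markers DEX against control was higher after adjustment in 12 of 13, beside 9.14% of all genes, with a median of 1.74, and DEX + RU-486 against control had a median of 1.23. These contrasts share libraries, and control differed from DEX in RIN and depth, so the values are given side by side only. In bulk RNA, fewer cells of a type and less RNA per cell cannot be told apart.

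Mobp, the myelin-associated oligodendrocyte basic protein, led the list. It was at 115, 76.1, 103, 86.1 and 78.4 CPM in DEX libraries 7 to 11 and at 48.2, 20.3, 71.9, 32.7 and 45.7 CPM in DEX + RU-486 libraries 13 to 17, and the groups did not overlap. The means were 91.6 ± 16.6 and 43.7 ± 19.3 CPM (SD, n = 5 in each group). The log2 fold change was -1.07 (SE 0.25, 95% interval -1.60 to -0.54, unadjusted p = 0.000624), with DESeq2's adjusted p at 0.0461 and edgeR's at 0.951. Mbp, a main structural protein of compact myelin, was at 258, 271, 435, 287 and 295 CPM in DEX and 147, 119.6, 313, 197 and 188 CPM in DEX + RU-486. Library 15 reached into the DEX range, library 9 was the highest DEX library, and the log2 fold change was -0.68 (SE 0.22, 95% interval -1.14 to -0.22, unadjusted p = 0.00670).

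Mag, an adhesion protein on the inner face of the myelin sheath, was at 43.8, 31.2, 56.5, 43.9 and 36.5 CPM in DEX and 15.7, 11.9, 44.3, 19.6 and 26.6 CPM in DEX + RU-486, and the log2 fold change was -0.85 (SE 0.28, 95% interval -1.45 to -0.25, unadjusted p = 0.00842). Cnp, a phosphodiesterase of non-compact myelin, was at 53.5, 34.2, 49.8, 39.3 and 43.5 CPM and 23.2, 13.97, 49.4, 32.2 and 27.2 CPM, with -0.60 (SE 0.25, 95% interval -1.12 to -0.074, unadjusted p = 0.0281). In Mbp, Mag and Cnp library 15 was the highest of the DEX + RU-486 group and lay among the DEX libraries.

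The lineage transcription factors Sox10 and Olig1 had -0.65 (p = 0.0350) and -0.73 (p = 0.0187), and Mog, a surface glycoprotein of myelin, -0.60 (p = 0.0291). Without DEX library 7, Sox10 and Olig1 each had -0.41. Precursor markers were less certain. Pdgfra, the growth factor receptor of oligodendrocyte precursors, was at 13.9, 1.75, 1.69, 0.644 and 1.26 CPM in DEX, where library 7 alone was high, and at 3.13, 1.69, 3.47, 3.67 and 0.810 CPM in DEX + RU-486. Its log2 fold change was -0.57 (95% interval -2.03 to 0.88) and 0.92 without library 7. Cspg4 (NG2), Olig2, Bcas1 and Enpp6 had -0.61, -0.62, -0.27 and -0.11, none at an unadjusted p under 0.05. Without library 7, Cspg4 had -0.15 and Olig2 -0.074. Outside the list, and picked after their values were seen, the myelin lipid raft protein Mal had -0.86 (p = 0.00478), the myelin transcription factor Myrf -0.75 (p = 0.0102), the neuregulin receptor Erbb3 -1.29 (p = 0.00156) and the prostaglandin D synthase Ptgds -1.79 (p = 0.00963). Ptgds was at 12.6, 1.75, 2.12, 1.72 and 1.74 CPM in DEX, high in library 7, and at 2.31, 0.828, 0.567, 1.28 and 0.682 CPM in DEX + RU-486, and its value was -0.69 without library 7.

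The summed level of the 13 markers, scaled over both batches, was 670 to 1061 CPM in DEX and 289 to 900.4 CPM in DEX + RU-486 in batch 1. Leaving out DEX library 7 brought the markers lower at an unadjusted p under 0.05 from 7 to 3 and the negative signs from 13 to 11, and leaving out library 13, 14 or 17 of DEX + RU-486 brought them to 4 each. Without library 7 and library 13 together, 4 were lower, 8 of 13 signs were negative and the median was -0.36. Batch 2, fitted on its own libraries, gave 13 of 13 negative signs with a median of -1.45 and 11 lower at an unadjusted p under 0.05, where 7.57% of all genes were lower. There the summed level was 923 to 1450 CPM in DEX and 179 to 532 CPM in DEX + RU-486, with no overlap. RIN in batch 2 was 7.4 to 7.7 in DEX and 7.6 to 8.7 in DEX + RU-486 (exact permutation p = 0.0857), the libraries of RIN 8.7 and 8.5 had the lowest sums (179 and 242 CPM), and the part of RIN in the result was not tested. Mobp was at 71.3, 101, 133 and 107 CPM in DEX and 17.6, 19.4, 8.30 and 13.99 CPM in DEX + RU-486 of batch 2, and the difference on the log2 scale was -2.80 (SE 0.24, edgeR's adjusted p = 0.000456, with all 4 libraries below all 4). Mal and Mag were also among the 7 genes lower after adjustment in batch 2 (0.0346% of those tested, beside 1 higher or 0.00494%), with -2.46 and -1.77. In a fit of both batches with batch as a covariate, Mobp was the 1 gene of all that passed, at -1.83 (edgeR's adjusted p = 0.0138).

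The promoter windows of Mobp, Mag and Cnp are shown because these are the list's members that held the Sox motif ACAAAG or its reverse complement CTTTGT, the core bound by Sox10 and other Sox factors, in capitals. Of the 8 listed genes with a RefSeq entry (GRCm38.p6), 3 held it (37.5%), against 18.7% of all 32841 promoter entries. Mobp held 6 matches, and Mag and Cnp held 1 each. The windows lie at chr9:120149492-120149791, plus strand for Mobp, at chr7:30914814-30915113, minus strand for Mag and at chr11:100574689-100574988, plus strand for Cnp. The match says only that these letters are in the window.
Mobp: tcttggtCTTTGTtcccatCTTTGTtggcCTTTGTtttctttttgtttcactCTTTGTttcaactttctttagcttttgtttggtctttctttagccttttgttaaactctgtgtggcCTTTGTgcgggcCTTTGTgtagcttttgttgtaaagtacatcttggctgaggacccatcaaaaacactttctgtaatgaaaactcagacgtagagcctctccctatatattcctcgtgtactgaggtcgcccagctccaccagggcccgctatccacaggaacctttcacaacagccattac
Mag: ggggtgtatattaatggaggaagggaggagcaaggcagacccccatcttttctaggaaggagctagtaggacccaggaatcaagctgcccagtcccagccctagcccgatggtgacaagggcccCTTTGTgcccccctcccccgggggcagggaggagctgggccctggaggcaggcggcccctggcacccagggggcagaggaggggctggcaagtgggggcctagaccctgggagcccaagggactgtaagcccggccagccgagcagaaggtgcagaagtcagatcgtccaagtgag
Cnp: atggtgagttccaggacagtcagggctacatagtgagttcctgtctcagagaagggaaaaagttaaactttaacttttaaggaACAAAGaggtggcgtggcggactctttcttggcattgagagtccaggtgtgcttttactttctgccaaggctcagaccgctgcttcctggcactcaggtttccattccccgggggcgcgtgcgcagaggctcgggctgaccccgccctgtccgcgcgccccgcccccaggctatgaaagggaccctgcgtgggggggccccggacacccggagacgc

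**Figure D3:**
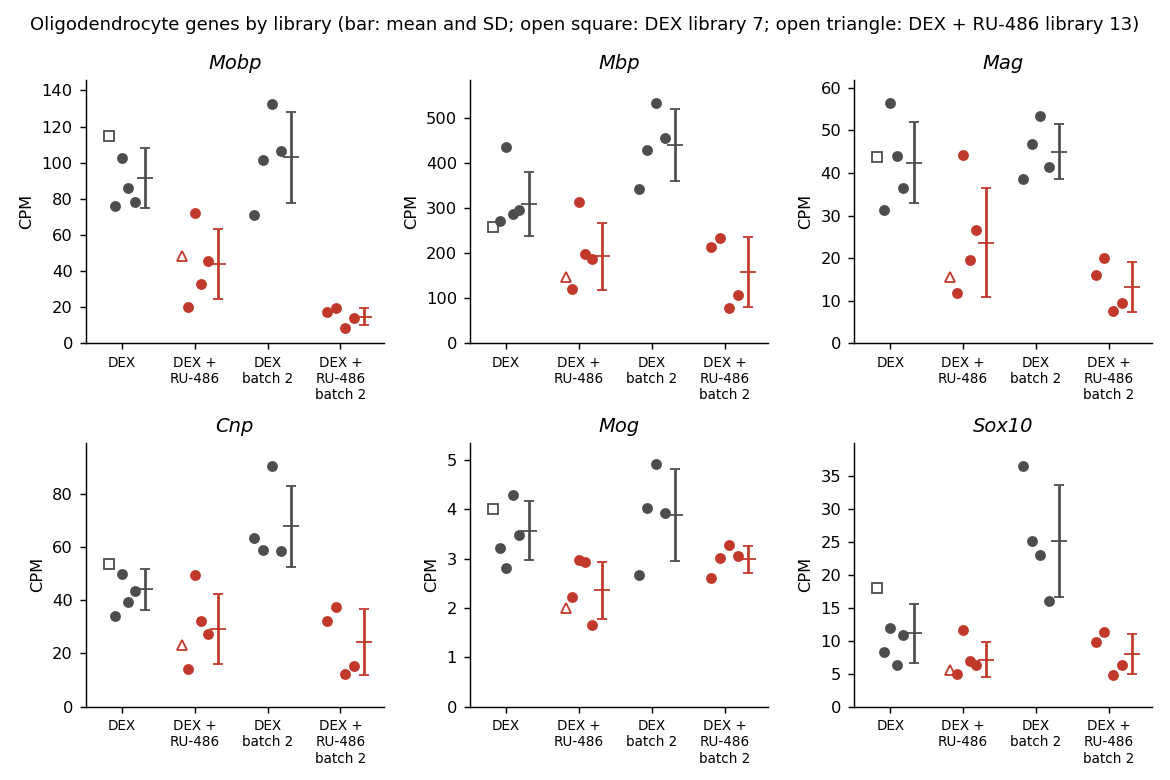
CPM of 6 oligodendrocyte genes in each library of batch 1 and batch 2, scaled within each batch, with the mean and SD beside the points. In batch 1 the groups are apart for Mobp alone of these genes, with library 15 as the highest DEX + RU-486 library, while in batch 2 the groups are apart for 5 of the 6 genes and overlap for Mog.

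Other cell type lists had fewer members past an unadjusted p of 0.05. Of 8 astrocyte markers tested, Aldoc, a glycolytic enzyme of astrocytes, was lower with -0.56 (p = 0.0322), and 4 of 8 signs were negative (2.76% of all genes were lower at this threshold and 1.48% higher). In batch 2 all 8 were negative with a median of -0.62, and 4 were lower at an unadjusted p under 0.05 (7.57% of all genes there). Among the 12 tested neuronal markers 1 was higher, beside 1.48% of all genes: Neurod6, a transcription factor of cortical excitatory neurons, with 154, 151, 151, 142 and 173 CPM in DEX and 164, 157, 219, 195 and 183 CPM in DEX + RU-486 (0.25, p = 0.0305). Batch 2 gave -0.15 for it. Markers of dividing cells and of vascular and meningeal cells had 0 members at an unadjusted p under 0.05 in either direction. In batch 2 the markers of dividing and progenitor cells had 9 of 11 negative signs, a median of -0.49 and 4 lower at that threshold (Sox2, Cdk1, Vim and Nes), so lower marker values in that batch were not limited to the oligodendrocyte list.

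Protein genes encoded by mitochondrial DNA had mostly higher values in DEX + RU-486 in this batch and lower values in the other. Of the 13, all tested, 10 had a positive log2 fold change, 7 were higher at an unadjusted p under 0.05 (53.8%, against 1.48% of all genes), and the median was 0.56. None passed after adjustment with edgeR. The 7 were mt-Nd1, mt-Nd2, mt-Nd4, mt-Nd5 and mt-Nd6, which are subunits of respiratory complex I, mt-Cytb of complex III and mt-Co1 of complex IV. For mt-Nd5 the levels were 1447, 1832, 1438, 1152 and 1404 CPM in DEX and 2059, 1700.3, 2513, 1537 and 2914 CPM in DEX + RU-486, with library 8 of DEX inside the range of the other group. Its log2 fold change was 0.56 (SE 0.17, 95% interval 0.19 to 0.93, unadjusted p = 0.00546). For mt-Co1 the levels were 3703, 4901, 3884, 3108 and 3802 CPM and 5623, 4887, 6199, 3902 and 7506 CPM, with 0.54 (SE 0.17, 95% interval 0.17 to 0.90, unadjusted p = 0.00656). The other named members lay close by, from 0.57 for mt-Cytb to 0.64 for mt-Nd2.

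In batch 2 the same list had a median of -0.48, with 10 of 13 lower at an unadjusted p under 0.05 and 0 higher, beside 7.57% and 7.38% of all genes there. Of these, mt-Nd6 (-0.81, p = 3.93e-06) was among the 7 genes lower after adjustment in batch 2 (0.0346% of those tested). There mt-Nd5 stood at 3558, 3975, 4342 and 3939 CPM in DEX and 3028, 2718, 2729 and 2323 CPM in DEX + RU-486, which did not overlap (-0.55). The test of the difference itself, the treatment by batch interaction, gave an unadjusted p under 0.05 for 9 of 13, with a batch 1 minus batch 2 difference of 1.40 for mt-Nd6 (edgeR, p = 1.06e-05, adjusted p = 0.206) and 1.12 for mt-Nd5 (edgeR, p = 4.99e-05, adjusted p = 0.286). Over all 19463 genes of that test 0 passed after adjustment with edgeR, 853 and 766 had an unadjusted p under 0.05 (4.38% and 3.94%), and DESeq2 called 28, among them 6 of the mitochondrial genes. The labels name a poly-A library preparation and the study's methods a total RNA library, and which applies bears on what counts of mitochondrial ribosomal, small nucleolar and small nuclear RNA mean. The share of counts on mitochondrial ribosomal RNA was 20.8% to 39.5% in DEX and 24.8% to 41.9% in DEX + RU-486 in batch 1, and 33.5% to 35.5% and 19.8% to 31.9% in batch 2. Its part in the result was not tested. With the libraries of RIN under 6 added, 0 of the 13 were higher at an unadjusted p under 0.05.

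**Figure D4:**
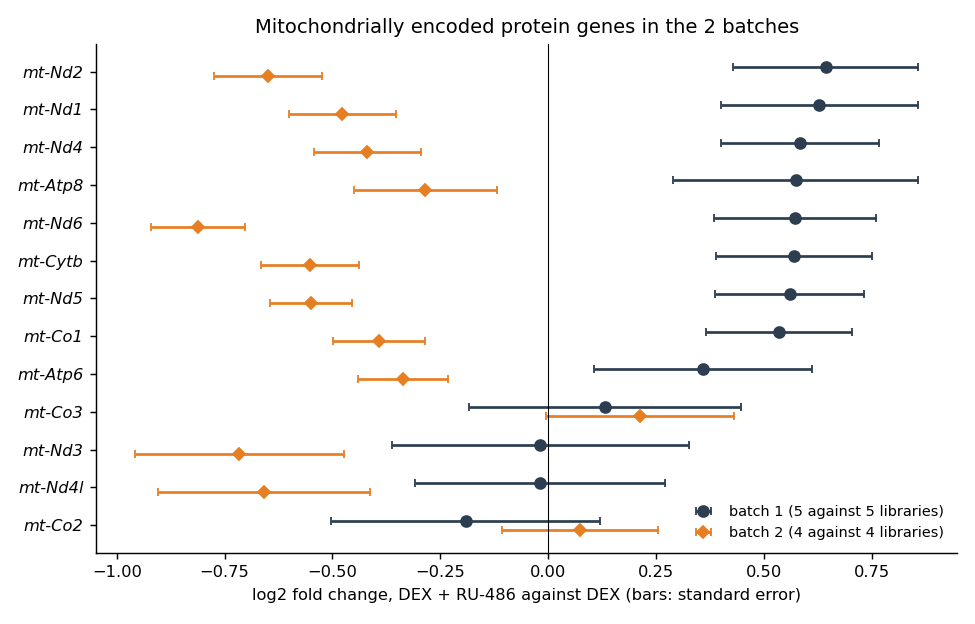
Log2 fold change of DEX + RU-486 against DEX for the 13 mitochondrially encoded protein genes, batch 1 as circles and batch 2 as diamonds, with the standard error as bars. In batch 1, 10 of the 13 lie above 0, and in batch 2, 11 lie below it.

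Genes of the smallest p were named by a rule: symbols that are not predicted names, at least 1 CPM in the higher group, and libraries that do not overlap between the groups. None of these passed after adjustment with edgeR, while DESeq2 gave Mobp and Snord100 an adjusted p of 0.0461 each. In each direction the 15 of smallest p were taken. Slc4a10, a sodium-driven bicarbonate transporter of neurons, was at 56.5, 52.8, 50.95, 47.8 and 47.96 CPM in DEX and 87.3, 64.98, 61.03, 60.7 and 58.9 CPM in DEX + RU-486 (0.38, p = 0.00585). Npr3, the clearance receptor of natriuretic peptides, was at 5.49, 7.07, 7.74, 6.15 and 6.49 CPM and 9.17, 9.57, 8.26, 9.68 and 10.02 CPM (0.50, p = 0.00483). Slc29a1, a nucleoside transporter, had 0.73 (p = 0.00884), and Spry3, a Sprouty-type inhibitor of receptor tyrosine kinase signals, 0.56 (p = 0.0108).

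The set also held B3gat1, which builds the HNK-1 carbohydrate on neural adhesion molecules, at 109.9, 113, 109, 96.8 and 116 CPM in DEX and 133, 127, 133, 141 and 118 CPM in DEX + RU-486 (0.26, p = 0.0101). Cers6, a ceramide synthase, was at 76.1, 76.5, 81.5, 72.8 and 73.4 CPM and 102, 99.2, 83.1, 85.9 and 93.7 CPM (0.29, p = 0.00669), and the cytochrome b5 reductase Cyb5r4 had 0.43 (p = 0.00271). Aff2, the AFF family gene of the FRAXE locus, was at 52.2, 54.6, 55.6, 55.4 and 53.3 CPM and 65.8, 66.2, 72.1, 62.3 and 64.7 CPM (0.29, p = 0.00430), and Zcchc7, a cofactor of the RNA exosome, had 0.43 (p = 0.00593). Slf2, which recruits the SMC5/6 complex to damaged DNA, had 0.26 (p = 0.0138). The remaining members were Panct2 (1.22), Cpxm1 (0.88), Zmym6 (0.35), Rsbn1 (0.31) and Mapk1ip1l (0.26). Panct2 is an antisense RNA that overlaps Slco4c1, and reads of the pair cannot be told apart without strand. In batch 2, Npr3 (0.73, p = 0.00872), Slc4a10 (0.57, p = 0.0100), B3gat1 (0.47, p = 0.000210), Spry3 (0.70, p = 0.00731) and Cers6 (0.23, p = 0.0418) were higher at an unadjusted p under 0.05. The sign was opposite there for Aff2 (-0.22, p = 0.0161), Slc29a1 (-0.29), Zcchc7 (-0.20), Rsbn1 (-0.16) and Cyb5r4 (-0.15).

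Of the 15 lower genes, Mobp is given above. Rab31, a small GTPase of vesicle transport, was at 24.6, 19.4, 24.9, 23.4 and 27.1 CPM in DEX and 13.7, 14.96, 19.2, 15.6 and 18.2 CPM in DEX + RU-486 (-0.55, p = 0.000845). Rtkn (rhotekin), a scaffold protein of small GTPase signalling, was at 8.54, 4.34, 7.18, 6.22 and 4.75 CPM and 4.20, 2.15, 3.72, 3.50 and 3.71 CPM (-0.85, p = 0.00340). Both were also lower in batch 2, at -0.40 (p = 0.00890) and -1.34 (p = 0.000777). The Golgi SNARE Bet1l (-0.48, p = 0.00506), the lysosome positioning subunit Borcs6 (-0.44, p = 0.00579) and the zinc transporter Slc39a7 (-0.27, p = 0.0130) were also in this set. Kptn, an actin-binding protein of the KICSTOR complex, was at 6.36, 5.95, 4.75, 7.22 and 5.95 CPM and 3.38, 3.84, 3.72, 3.83 and 3.96 CPM (-0.69, p = 0.00179), and batch 2 gave 0.24.

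The recombination factor Swi5 had -0.26 (p = 0.00887), the transcription elongation factor Supt4a -0.53 (p = 0.0106) and Als2cl -1.44 (p = 0.0114). Snord100, a small nucleolar RNA on chromosome 10 (GRCm38, 23785750 to 23785823, minus strand) inside Rps12 on the same strand, was at 5.49, 6.72, 3.25, 3.004 and 3.31 CPM in DEX and 2.77, 1.19, 1.64, 1.44 and 1.36 CPM in DEX + RU-486 (-1.37, p = 0.000597). Reads of Snord100 and of its host gene overlap. The pseudogenes Rpl3-ps2 (-1.88), Ywhaq-ps3 (-0.61) and Rps18-ps1 (-1.08) were also in the set. In batch 2 the sign was opposite for Kptn, Supt4a (0.16), Swi5 (0.047), Als2cl (0.65), Snord100 (0.24) and Ywhaq-ps3 (0.073).

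In this set B3gat1, Rtkn, Bet1l, Swi5 and Als2cl overlap a coding gene on the opposite strand (Glb1l2, Wdr54, Ric8a, Golga2 and Tmie). Outside the set, so do Glul (Teddm2), Dusp1 (Ergic1) and Cnp (Dnajc7), whose values are given above. The strand setting of the counting is not given in the sources used here.

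**Figure D5:**
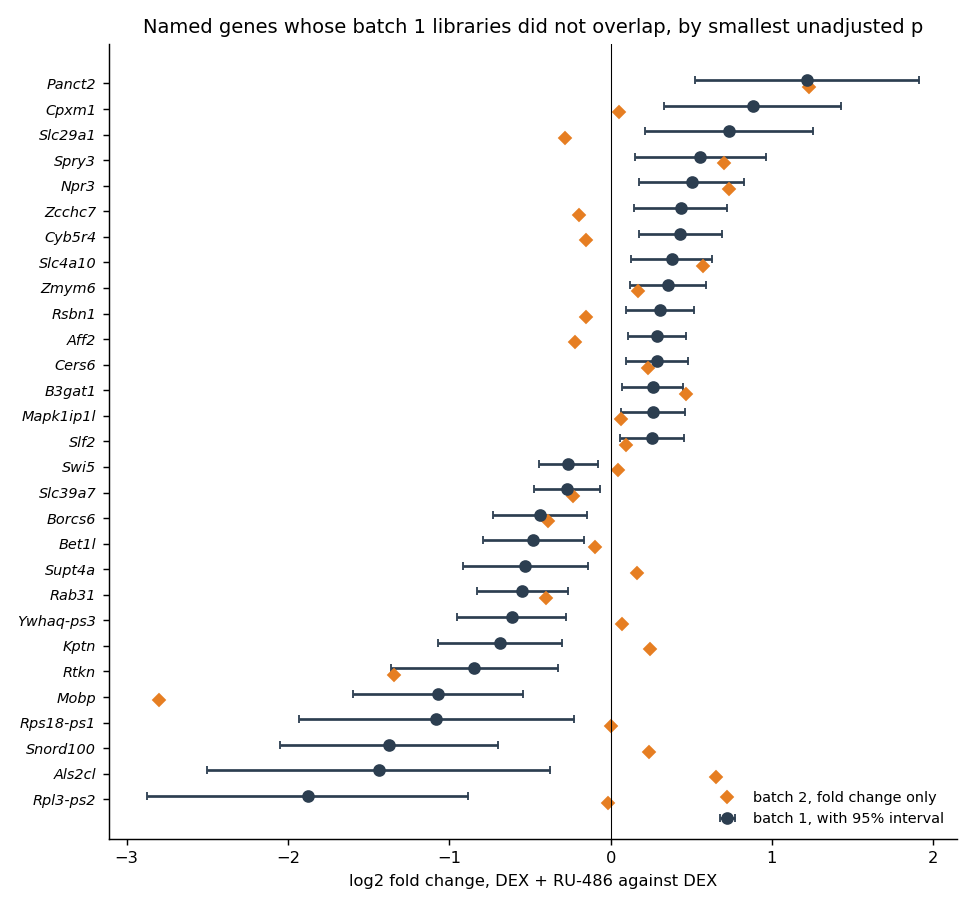
Log2 fold change of 15 higher and 14 lower named genes with separated libraries in batch 1 (circles, 95% interval) and the batch 2 value of each (diamonds). Mobp, Rtkn, Rab31, Npr3, Slc4a10 and Spry3 lie on the same side in both batches, while Snord100, Als2cl, Slc29a1 and Cyb5r4 lie on opposite sides.

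The smallest p values of all, without a rule on names, belonged to Ndnf, 5730408A14Rik, Panct2, Cyb5r4 and Gm49353 on the higher side. Ndnf, a secreted neurotrophic factor, was at 1.92, 2.24, 2.56, 1.86 and 3.19 CPM in DEX and 4.25, 2.61, 10.02, 7.34 and 7.50 CPM in DEX + RU-486. Its groups overlapped through library 14, the log2 fold change was 1.42 (SE 0.33, 95% interval 0.72 to 2.11, unadjusted p = 0.000582), and batch 2 gave 0.094. The entry 5730408A14Rik lies within Rgs7 on the same strand and had 2.29, and Gm49353 overlaps Soga3 and had 0.69. On the lower side were Gm15564 (-1.36, p = 6.63e-05), Gm6063 (-0.79, p = 0.000101), Gm13532 (-1.07, p = 0.000297), Gm14414 and Ddc. Gm15564 is annotated antisense to Parp9 and Kpna1, and its level was 28.9, 39.2, 23.4, 20.2 and 16.7 CPM in DEX and 7.18, 7.02, 14.9, 8.65 and 12.3 CPM in DEX + RU-486. Gm14414, a processed pseudogene, had 0 counts in all 5 DEX + RU-486 libraries, which allows up to 0.0265 CPM over the group, and 1.39, 0.770, 0, 1.79 and 0.781 CPM in DEX. Ddc, the decarboxylase that makes dopamine and serotonin, was at 0.784, 1.54, 0.375, 0.429 and 0.661 CPM in DEX and 0, 0.132, 0.0630, 0.0824 and 0.0426 CPM in DEX + RU-486. Its log2 fold change was -3.36 (SE 0.72, 95% interval -4.90 to -1.82, unadjusted p = 0.000321). In batch 2 Ddc had -0.41 (p = 0.721).

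Ribosomal protein genes, on which the study centred, differed by less than 2-fold between the groups. Of 84 such genes 81 were tested, 36 were positive and 45 negative, the median was -0.012, 0 had an unadjusted p under 0.05, and all 81 intervals lay within 2-fold. The smallest p belonged to Rps26 among the positive ones, with 0.16 (p = 0.137), and to Rpl41 among the negative ones, with -0.22 (p = 0.209). In batch 2, 67 of the 81 were negative, the median was -0.15, and at an unadjusted p under 0.05 there were 22 lower and 0 higher, beside 7.57% and 7.38% of all genes. The batch interaction had an unadjusted p under 0.05 for 11 of them, beside 4.38% and 3.94% of all genes in the 2 directions. Their processed copies had mostly negative values. Among 127 tested Rpl and Rps pseudogenes, 123 had a negative log2 fold change, the median was -0.50, and 20 were lower at an unadjusted p under 0.05 (15.7%, against 2.76% of all genes). None passed edgeR's adjusted threshold. Rps16-ps2 was at 9.15, 12.3, 12.2, 13.6 and 12.7 CPM in DEX and 9.64, 4.90, 9.65, 5.69 and 6.35 CPM in DEX + RU-486 (-0.74, p = 0.00275), Rps12-ps19 had -0.89 (p = 0.00297), and Rpl17-ps8 had the largest positive value with 0.33 (p = 0.0521). In batch 2 the median of these pseudogenes was -0.10, and of 123 tested 5 were lower and 2 higher at the same threshold, beside 7.57% and 7.38% of all genes there.

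That direction was shared by processed pseudogenes in general and by small nuclear and nucleolar RNAs. Of 1371 processed pseudogenes 1154 were negative, 223 of them at an unadjusted p under 0.05 against 2 positive ones, and the median was -0.41. Of 52 small nucleolar RNAs 49 were negative and 10 were lower, and of 39 small nuclear RNAs 34 were negative and 11 lower, where 49.2% of all genes were negative and 2.76% lower at that threshold. Protein-coding genes had 192 higher and 199 lower of 13797, with a median of 0.012. Processed pseudogenes held 0.542% to 0.827% of counts in DEX and 0.395% to 0.597% in DEX + RU-486, and the non-overlapping depth of the groups goes with this difference, whose part in the result was not tested. Reads of a pseudogene and of its parent can be near-identical. For ribosomal protein genes and their copies, the study's methods describe an alignment that allowed no mismatch and dropped reads with several matching loci. They state that the reads of these cultures were processed with the pipeline they describe. How reads were split between a pseudogene and its parent in the count table was not tested and is uncertain. With the libraries of RIN under 6 added, the lower RP pseudogenes at an unadjusted p under 0.05 were 3 and the lower processed pseudogenes 41. With 1 library left out the RP pseudogenes at that threshold numbered 36 without library 13 and 12 without library 14 or 16, and the processed pseudogenes 143 without DEX library 10 and 122 without library 14. In batch 2 the median of 21 tested small nucleolar RNAs was 0.56.

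Genes of neuronal activity had lower values by sign alone. All 21 immediate early genes, which respond to activity and growth factors within minutes, had a negative log2 fold change, the median was -0.17, and 0 had an unadjusted p under 0.05. For them DEX against control was higher after adjustment in 16 of 21, beside 9.14% of all genes, with a median of 1.53, and DEX + RU-486 against control had a median of 1.25. Fos was at 121, 19.2, 24.6, 23.7 and 19.7 CPM in DEX and 72.4, 9.996, 26.7, 21.4 and 19.9 CPM in DEX + RU-486, and Arc, a regulator of synaptic receptor traffic, at 54.2, 5.46, 8.43, 9.73 and 9.38 CPM and 16.1, 2.61, 7.88, 9.97 and 6.61 CPM. Library 7 was far above the others of DEX in both genes, and library 13 was the highest of DEX + RU-486. Without library 7, 6 of 21 signs were negative and the median was 0.082, and without DEX + RU-486 library 14, 12 were negative. Without libraries 7 and 13 together 16 were negative and the median was -0.11, and with RIN as a covariate 16 were negative and the median was -0.033. Batch 2 had 18 of 21 negative with 10 lower at an unadjusted p under 0.05, beside 7.57% of all genes.

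Synaptic genes held no member at an unadjusted p under 0.05, where 1.48% of all genes were higher and 2.76% lower. Of 14 GABA receptor genes 13 were positive (50.8% over all genes), the median was 0.16, values ran from -0.063 to 0.30, and all 14 intervals lay within 2-fold. DEX against control gave -0.52 for the same list and DEX + RU-486 against control -0.38. Glutamate receptors had 14 of 21 positive with a median of 0.070, synaptic vesicle and release genes 17 of 28 with 0.037, and potassium channels 14 of 26 with 0.022. The interval lay within 2-fold for 20 of the 21 glutamate receptors, 26 of the 28 release genes and 23 of the 26 channels. In batch 2, at an unadjusted p under 0.05, 6 glutamate receptors were higher and 3 lower. The counts there were 3 and 0 for GABA receptors, 5 and 3 for release genes and 4 and 4 for channels. Of all genes in that batch 7.38% were higher and 7.57% lower.

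Stress, clock and metabolic lists held few members past that threshold. Of 22 tested genes of the integrated stress and unfolded protein responses, 13 were positive and 2 were lower at an unadjusted p under 0.05, beside 2.76% of all genes, and batch 2 had 6 higher and 6 lower, beside 7.38% and 7.57% of all genes there. The 2 lower in batch 1 were Creld2 (-0.68, p = 0.0100) and Sdf2l1 (-1.16, p = 0.0406), which help fold proteins in the endoplasmic reticulum. Clock genes had 12 of 18 positive with a median of 0.063, and cholesterol synthesis and uptake genes 14 of 24 with 0.018, each with 0 members at an unadjusted p under 0.05. In batch 2, 5 clock genes were higher and 1 lower at that threshold, and 1 cholesterol gene was higher and 1 lower. The shares of all genes there are those given above. Of 20 inflammatory genes that glucocorticoids repress, 8 passed the filter, and Il6, Tnf, Il1b and Ccl2 were among those that did not. Collagen and matrix genes had 12 of 19 positive and neurotrophins and their receptors 5 of 12, again with 0 members at that threshold.

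The batch 2 libraries were used to look up the genes at an unadjusted p under 0.05. Of the 506 lower genes 478 were tested there, 257 were negative again, and 39 were lower at an unadjusted p under 0.05, which is 8.16% against 7.57% of all genes in that batch. Of the 271 higher genes 267 were tested, 139 were positive again and 20 were higher, 7.49% against 7.38% of all genes. In the opposite direction 14 of the lower genes were higher in batch 2 at that threshold (2.93%), and 25 of the higher genes were lower (9.36%). The shares of all genes are over every gene tested in batch 2. Of the 18002 genes tested in both batches, 1446 were higher and 1452 lower in batch 2 at that threshold. The same-direction shares are near the background. The 39 held 6 of the 13 oligodendrocyte markers (Mobp, Mbp, Mag, Olig1, Cnp and Sox10) along with Rab31, Rtkn, Mal, Myrf, Ptgds, Glul and Aldoc. The 20 held Npr3, Slc4a10, Cers6, B3gat1 and Spry3.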

How the data were processed

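RNAseq counts per gene were deposited by the authors as 1 table of raw, whole-number counts for 36 libraries. Per the labels, reads were processed with HISAT2 2.1.0 and Subread 1.5.0-p2 on GRCm38, and the strand setting is not given in the sources used here. All columns carried a sample (0 without one). Symbols and biotypes came from GENCODE M21, which held 55227 of the 55492 entries. Of the libraries that the labels put in the 2 groups of batch 1, DEX library 12 (RIN 3.9) and DEX + RU-486 library 18 (RIN 5.6) were left out of the main fit. Drug dose and exposure time were taken from the study's methods. No pair of libraries within a group agreed within counting noise, with count variances of 9.04 to 299.8 times it, so none was counted as a duplicate.

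Genes with a mean count above 5 over the 10 libraries were tested with edgeR 4.0.16 (TMM scaling, quasi-likelihood test, Benjamini-Hochberg adjustment over all 18303) in R 4.3.3, and SE values are the absolute log2 fold change over the square root of F. Exact permutation tests used scipy 1.17.1. DEX against control and DEX + RU-486 against control came from a fit of the 3 groups of batch 1. Batch 2 and the batch interaction were fitted in the same way. Alternatives were DESeq2 1.42.0, limma-voom 3.58.1, other scalings and filters, RIN as a covariate, other sets of libraries, and leaving out each library in turn. The scripts were tested on simulated data.

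The members and gene lists were chosen with earlier results of these data known. Genes named were all tested receptor targets, the 15 per direction of smallest p with libraries that did not overlap, a symbol that is not a predicted name and at least 1 CPM in the higher group, the 5 of smallest p per direction, up to 4 members per list and direction at an unadjusted p under 0.05, and the 3 ribosomal genes of smallest p per direction. Some genes that this rule or a list takes in are not reported here. Since no gene passed after adjustment with edgeR, counts at an unadjusted p under 0.05 were added after seeing the data.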

Additional observations from a re-analysis of the deposited data

Results flagged for a closer look

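Single libraries lay far from the other 4 of their group in 29 of the 200 sets of 5 values examined (gap to the nearest library above 0.71 of the range). Chance gives about 5% for independent, normally distributed values. These sets share libraries and include genes picked after their values were seen, so that 5% is not a background for them. DEX library 7, of the lowest RIN in its group, held 14 of them. It was the highest DEX library for the receptor targets Klf9 (35.9 CPM), Zbtb16 (22.1 CPM), Tsc22d3 (21.9 CPM) and Dusp1 (39.8 CPM) and for Nr3c1 (15.1 CPM), for the lineage genes Pdgfra (13.9 CPM), Olig1 (19.1 CPM) and Olig2 (11.2 CPM), for Ptgds (12.6 CPM), for Fos (121 CPM) and Arc (54.2 CPM), and for the summed neuronal markers (3659 CPM). It was the lowest for Slf2 (61.0 CPM) and Gm9234 (7.50 CPM). DEX library 9 was high for Mbp (435 CPM).

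DEX + RU-486 library 13, also of the lowest RIN in its group, held 9. It was the highest for Cdkn1a (46.7 CPM), Klf9 (21.9 CPM), Slc4a10 (87.3 CPM), Snord100 (2.77 CPM), Rpl3-ps2 (0.974 CPM), Fos (72.4 CPM), the summed neuronal markers (3630 CPM) and the 7SL RNA copies Rn7s1 (13287 CPM) and Rn7s6 (74.5 CPM), whose reads cannot be assigned to one copy with certainty. Library 17 was high for Zcchc7 (52.8 CPM) and 5730408A14Rik (1.71 CPM), library 16 was high for Cspg4 (1.81 CPM) and low for Supt4a (4.70 CPM), and library 15 was high for Gm9234 (8.07 CPM).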

How the results depend on the processing

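No paired analysis was possible because the groups share no replicate numbers. The numbers of genes higher and lower after adjustment (0 and 0) stayed at 0 with limma-voom, RLE and upper-quartile scaling, a filter of 10 counts in every library, RIN as a covariate, all 12 libraries and the control group in the fit. They were 1 and 10 with DESeq2 and 12 and 45 without a filter on low counts, where the prior degrees of freedom were 233 against 6.96. They were 0 and 1 with both batches (Mobp), 0 and 14 without DEX library 7 and DEX + RU-486 library 13, a choice made after seeing the data, and 0 and 0 to 2 with 1 library left out, the 2 being Rn7s1 and Rn7s6 without library 13.

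Genes higher at an unadjusted p under 0.05 (271) numbered 805 without a filter, 533 with RIN as a covariate, 165 with all 12 libraries, 437 with the control group in the fit, 762 with both batches, 772 without libraries 7 and 13, and 178 to 644 with 1 library left out. Those lower (506) numbered 2263 without a filter, 237 with all 12 libraries, 788 with both batches, 871 without libraries 7 and 13, and 359 to 756 with 1 left out. The 7 oligodendrocyte markers became 11 with both batches, 4 without libraries 7 and 13 and 3 to 10 with 1 left out. The 7 mitochondrial genes became 0 with all 12 libraries, 0 with both batches and 6 to 9 with 1 left out. The 20 RP pseudogenes became 34 without a filter, 3 with all 12 libraries, 35 without libraries 7 and 13 and 12 to 36 with 1 left out, and the 223 processed pseudogenes became 634, 41 with all 12 libraries and 122 to 315. The 0 genes of the batch interaction became 28 with DESeq2 and 0 to 8 with 1 left out (8 without DEX library 7 and 1 without DEX library 8). The cause was not tested in these cases.

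Of 89 named genes 13 changed sign under some alternative. With 1 library left out the log2 fold change ranged from -0.63 to 0.24 for Klf9, -0.30 to 0.11 for Tsc22d3, -0.30 to 0.063 for Per1, -0.38 to 0.0043 for Dusp1, -0.070 to 0.16 for Nr3c1, -0.85 to 0.92 for Pdgfra, -0.38 to 0.18 for Enpp6, -1.09 to 0.46 for Fos and -1.36 to 0.057 for Arc. With RIN as a covariate it was 0.00072 for Tsc22d3, 0.011 for Per1, 0.49 for Pdgfra and 0.048 for Enpp6. It was 0.17 for Pdgfra with limma-voom, -0.096 for Nr3c1 with all 12 libraries, and -0.046 for mt-Nd6 with both batches. Without libraries 7 and 13 it was 0.83 for Pdgfra, 0.36 for Enpp6, 0.017 for Cspg4, 0.027 for Olig2 and 0.044 for Bcas1. Of the 1855 values of named genes under alternatives 1792 kept their direction and side of the threshold, and 39 passed it in addition. Total counts were lower in every DEX library than in every DEX + RU-486 library of batch 1.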

Other observations

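Lars2, picked after its values were seen, encodes the mitochondrial leucyl-tRNA synthetase, and was at 353, 1128, 889, 657 and 573 CPM in DEX and 525, 484, 374, 308 and 292 CPM in DEX + RU-486 (-0.86, p = 0.00406), while batch 2 gave 0.85, the 1 gene higher there after adjustment (edgeR's adjusted p = 0.0229). The batch interaction of Lars2 had an unadjusted p of 3.57e-05 and an adjusted p of 0.286 with edgeR. In DEX libraries 7 to 11 the biotype rRNA, apart from its mitochondrial form, held 0.622%, 4.58%, 3.74%, 3.42% and 2.04% of counts. Lars2 had the same order of libraries there. In DEX + RU-486 libraries 13 to 17 the share was 0.92%, 1.53%, 1.39%, 0.881% and 0.826%, and the order differed from Lars2. Batch 2 medians were 0.841% in DEX and 1.51% in DEX + RU-486. The part of rRNA in the Lars2 values was not tested. Of 1186 tested entries of the biotype TEC (unconfirmed transcripts), 791 had a positive log2 fold change and the median was 0.24. Of these entries 40 passed an unadjusted p of 0.05 as higher (3.37%, beside 1.48% of all genes) and 9 as lower (0.759%, beside 2.76%). Their median in batch 2 was -0.039.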
